A study of Mus musculus with 15 samples.

Results

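Involucrin and 9 further genes of the cornified envelope and the desmosome were followed in mouse 4T1 mammary carcinoma cells. The genes were Ivl, Sprr1a, Tgm1, Evpl, Ppl, Dsp, Pkp1, Jup, Dsc2 and Dsg2. They were picked by gene symbol and joined across 4 tables by Ensembl identifier, and the list was chosen by its members' fold changes and p-values in these same tables, so the counts below describe the list and do not test it. Of the 10 genes, 8 were in all 4 tables, among 12686 genes in all of them. Tgm1 was in the 3 tables of 2D cultures and not in that of spheroids, and Sprr1a was in none.

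RNA was sequenced from 15 samples in 5 groups of 3. For spheroids, Padi4 WT or Padi4 KO 4T1 cells were grown for 3 days on ultralow attachment plates and 7 more days in 75% Matrigel. In 2D culture with 2% FBS, Padi4 KO cells (the genotype of these recipients comes from the study's methods) received exsporosi, called nuclear expulsion products (NEPs) here, apoptotic debris (apoDBs) or vehicle. Donors of NEPs were iCasp9 Padi4+/+ cells and donors of apoDBs were iCasp9 Padi4 -/- cells. Both were killed with AP1903, which activates the inducible caspase-9, and debris of 5000 donor cells was added per 500 recipients. NEPs and apoDBs therefore differ in the genotype of the donor as well as in the kind of debris. Padi4 was deleted with Cas9 and puromycin selection, and the study describes its 4T1 Padi4 KO lines as clones, without saying in the sources used here which were sequenced. Nothing in the labels says whether the 3 samples of a group were separate cultures, so p-values measure the spread between these samples.

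The cornified envelope is the protein shell that replaces the plasma membrane of a terminally differentiated keratinocyte. Transglutaminase 1, encoded by Tgm1, cross-links involucrin and small proline-rich proteins to a scaffold of the plakins envoplakin (Evpl) and periplakin (Ppl), and this scaffold starts at desmosomes. A desmosome joins the keratin filaments of neighbouring epithelial cells. Its cadherins, the desmogleins and desmocollins, bind across the gap, plakoglobin (Jup) and plakophilins hold their tails, and desmoplakin (Dsp) ties the complex to keratin. Simple epithelia have desmosomes with Dsg2 and Dsc2 and form no cornified envelope.

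The deposited tables hold a fold change and a limma p-value per gene, while levels in single samples were not analysed here and depth is unknown. Errors are given as the widest 95% interval of a log2 fold change that its p-value allows with 3 samples a group, called the interval below. A gene is said to have fallen or risen at a false discovery rate (FDR) below 0.05 over all genes of its table. The study's own limits are stricter and ask for a log2 fold change beyond 2 in either direction at an FDR under 0.0001. The targeted gene Padi4 was higher in the WT than in the KO spheroids by 2.06 on the log2 scale (FDR 0.000542). In 2D cultures, whose recipients were all Padi4 KO, Padi4 was lower with apoDBs than with vehicle (-0.84, FDR 0.000324), higher with NEPs than with apoDBs (1.01, FDR 1.19e-06), and did not pass the test between NEPs and vehicle (0.15, FDR 0.109). Donors of NEPs had intact Padi4 and donors of apoDBs did not, and whether RNA of the donor cells was part of the 2D values was not tested. All 5 epithelial markers looked up were in every table, against 2 of 6 fibroblast, 2 of 6 leukocyte and 0 of 4 endothelial markers in the table of spheroids. That table had a median log2 fold change of -0.08 over all genes, and the medians of the others lay between -0.06 and 0.01. In bulk RNA, fewer cells of a kind and less RNA per cell cannot be told apart.

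In Padi4 WT against Padi4 KO spheroids, 7 of the 8 members in the table fell, 0 rose, and Ppl did not pass the test. Across all genes of that table, 26.1% fell and 21.7% rose. The median log2 fold change of the 8 members was -3.17. Ivl, Dsc2, Pkp1, Dsg2 and Dsp, 5 of the 8, were past the study's limits, as were 4.05% of all genes. The members' values were in view when the list was made, so nothing is read from these shares.

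Ivl had the largest change, with 49.6-fold lower expression in WT spheroids (log2 fold change -5.63, interval -7.85 to -3.41, FDR 2.68e-05). Only 0.199% of the genes in the table had a lower log2 fold change. The desmosomal cadherin Dsc2 followed at 19.9-fold lower (-4.31, interval -5.74 to -2.89, FDR 3.38e-06). Pkp1, a plakophilin best known from stratified epithelia, was 10.4-fold lower (-3.37, interval -4.75 to -1.995), the desmoglein Dsg2 9.82-fold lower (-3.30, interval -4.42 to -2.18), and Dsp 8.23-fold lower (-3.04, interval -4.11 to -1.97). Their FDRs were 4.52e-05, 4.66e-06 and 6.06e-06. These 5 intervals overlap, so the order among them is not resolved. How low the WT level was is unknown, and if few reads stood behind it, the size of a large fold change would rest on an offset not given here.

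Evpl fell 4.58-fold (-2.19, interval -3.14 to -1.25). Its FDR of 0.00011 put it just outside the study's limits, and Pkp1, with 4.52e-05, had the highest FDR of those inside. Jup, which also serves adherens junctions, fell 2.94-fold (-1.55, interval -2.51 to -0.59, FDR 0.00598). Its interval does not overlap those of Ivl and Dsc2. Ppl, which pairs with envoplakin, had a log2 fold change of 0.31 (interval -0.0039 to 0.62, FDR 0.0931). Its interval overlaps that of no other member, and so the intervals of both plakins of the envelope scaffold lie apart.

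**Figure D1:**
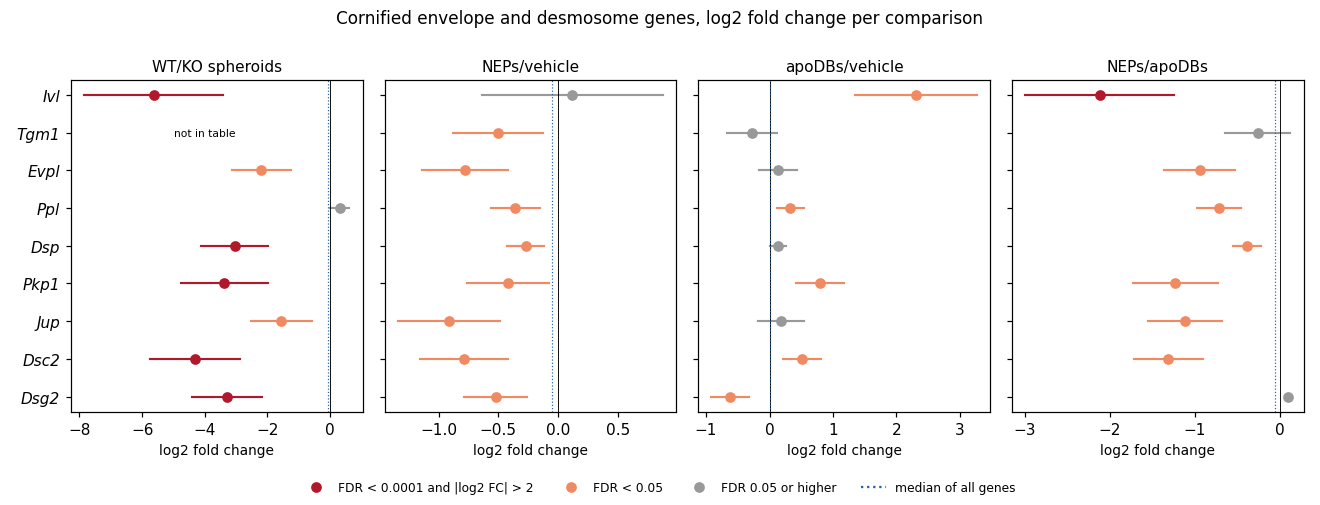
Log2 fold changes of the 9 members found in the tables (x axis, with a different range in each panel), by gene (y axis). Points are the values of the 3 against 3 samples, bars the widest 95% interval the p-value allows (none drawn for Dsg2 in NEPs/apoDBs, where the value was under 0.1 in size), colours the call, and the dotted line the median of all genes. In spheroids the bars of 7 members lie below 0, with Ivl lowest at -5.63, while in apoDBs/vehicle Ivl is highest at 2.30.

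Cultures given NEPs were compared with vehicle cultures, which received no donor material, so the comparison covers killed-cell debris in general as well as NEPs. Against vehicle, 8 of 9 members fell with NEPs, 0 rose and Ivl did not pass the test. Of all genes 31.1% fell and 24.3% rose, and 2.65% were past the study's limits, which 0 members reached. The declines were small, from 1.21-fold for Dsp to 1.88-fold for Jup. In order, the log2 fold changes were -0.91 for Jup (interval -1.34 to -0.48), -0.79 for Dsc2 (-1.15 to -0.42) and -0.78 for Evpl (-1.14 to -0.42). Below these in size came -0.52 for Dsg2, -0.51 for the cross-linking enzyme gene Tgm1, -0.42 for Pkp1, -0.36 for Ppl and -0.27 for Dsp. Neighbours in this order have overlapping intervals, while the interval of Dsp (-0.43 to -0.11) does not overlap that of Jup. FDRs of the 8 genes ran from 0.000161 for Evpl to 0.0313 for Pkp1. For Ivl the log2 fold change was 0.12 (interval -0.64 to 0.88, FDR 0.743).

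With apoDBs against vehicle the members parted. Ivl, Pkp1, Dsc2 and Ppl rose, Dsg2 fell, and Tgm1, Evpl, Dsp and Jup did not pass the test. Over all genes 22.9% rose and 22.6% fell, so 4 of 9 risen and 1 of 9 fallen are given beside those shares. Ivl rose 4.94-fold (2.30, interval 1.34 to 3.27, FDR 0.00016), a log2 fold change above that of 99.6% of genes. It missed the study's limits by its FDR, and 0 members passed them, as did 0.233% of all genes. Pkp1 rose 1.74-fold (0.79, interval 0.41 to 1.18, FDR 0.00069), Dsc2 1.43-fold (0.51, interval 0.21 to 0.81, FDR 0.00474) and Ppl 1.26-fold (0.33, interval 0.12 to 0.54, FDR 0.00712). The interval of Ivl lies above those of the other 3. Dsg2, the other simple-epithelial cadherin of the list, fell 1.54-fold (-0.62, interval -0.92 to -0.33, FDR 0.000583), so Dsc2 and Dsg2 moved in opposite directions with apoDBs. Jup had a log2 fold change of 0.18 (FDR 0.329), Evpl 0.14 (FDR 0.352), Dsp 0.14 (FDR 0.0641) and Tgm1 -0.28 (FDR 0.189).

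The direct comparison of both kinds of debris set NEP cultures against apoDB cultures. Of the 9 members 7 fell and 0 rose, with 31.4% of all genes lower and 23.4% higher. The median log2 fold change of the members was -0.94. Ivl was 4.35-fold lower with NEPs (-2.12, interval -3.00 to -1.24, FDR 2.79e-05) and was the only member past the study's limits, as 2.21% of all genes were. Dsc2 (-1.31, interval -1.72 to -0.90, FDR 3.84e-08), Pkp1 (-1.23, interval -1.73 to -0.72) and Jup (-1.11, interval -1.55 to -0.67) each fell more than 2-fold. Evpl (-0.94, FDR 8.44e-05), Ppl (-0.71, FDR 2.33e-06) and Dsp (-0.38, FDR 5.74e-05) fell less. Tgm1 had a log2 fold change of -0.26 (FDR 0.192) and Dsg2 one of 0.09 (FDR 0.198).

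The vehicle comparisons show where each of these differences lay, with the reservation that the 3 comparisons share samples and are not independent. For Ivl the value with NEPs was close to vehicle (0.12) and the value with apoDBs was above it (2.30). Evpl and Jup had the reverse arrangement. Their log2 fold changes against vehicle were -0.78 and -0.91 with NEPs, and 0.14 and 0.18 with apoDBs. Dsc2, Pkp1 and Ppl fell with NEPs and rose with apoDBs. For Dsg2 both kinds of debris came with lower values, -0.52 with NEPs and -0.62 with apoDBs. The direct log2 fold change differed from the difference of the vehicle comparisons by at most 0.0647, for Ivl, among the 9 members.

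**Figure D2:**
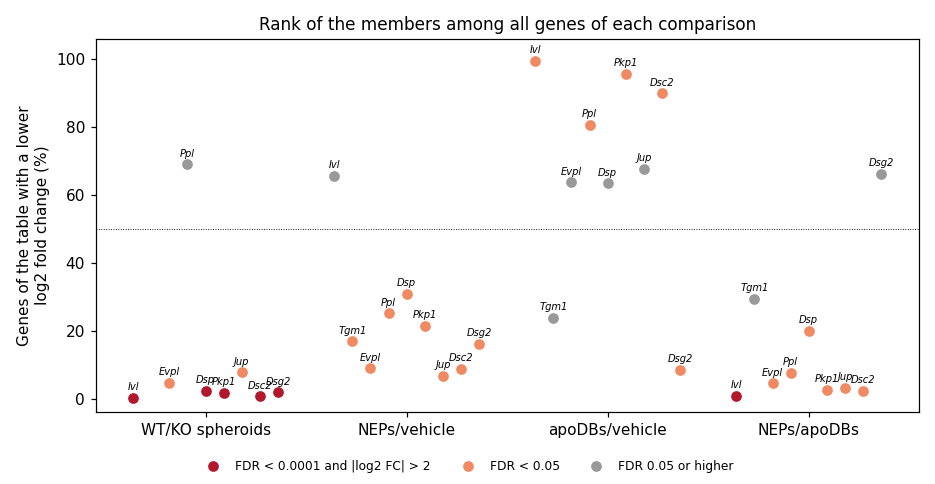
Percentage of the genes of each table with a lower log2 fold change than the member (y axis) in the 4 comparisons (x axis). Each point is 1 member, coloured by its call, and the dotted line marks the middle of the table. Ivl moves from 0.199% in spheroids to 99.6% with apoDBs against vehicle, and Dsg2 is the member with the lowest rank in that comparison at 8.54%.

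Involucrin and Sprr1a are neighbours in the epidermal differentiation complex, where many genes of late keratinocyte differentiation lie together. In GENCODE M21 (GRCm38) Ivl spans chr3:92570902-92573735 and Sprr1a chr3:92483952-92485895, both on the minus strand. AP-1 transcription factors are long known to act on the involucrin promoter, so the 250 bases before each start were searched for the AP-1 motif TGANTCA and for the Grainyhead-like motif AACCNGGTT, each of which reads the same on both strands. The sequences are from RefSeq on GRCm38.p6, and windows of 5 of the 10 genes were searched. This number does not say for how many of the genes RefSeq holds a window. Ivl and Sprr1a are shown as the cornified envelope genes with the AP-1 motif, and Dsp as a desmosome gene without it, all 5′ to 3′ on the strand of the gene with the motif in capitals.
Ivl: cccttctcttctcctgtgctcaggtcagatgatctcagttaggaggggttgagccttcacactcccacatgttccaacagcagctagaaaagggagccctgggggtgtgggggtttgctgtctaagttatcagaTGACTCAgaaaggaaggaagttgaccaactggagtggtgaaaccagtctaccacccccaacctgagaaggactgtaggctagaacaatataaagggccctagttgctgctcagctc
Sprr1a: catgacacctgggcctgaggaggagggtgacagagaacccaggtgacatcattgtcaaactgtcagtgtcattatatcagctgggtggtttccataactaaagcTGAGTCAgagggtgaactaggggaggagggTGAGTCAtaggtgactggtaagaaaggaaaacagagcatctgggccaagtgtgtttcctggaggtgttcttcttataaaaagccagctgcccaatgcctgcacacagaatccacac
Dsp: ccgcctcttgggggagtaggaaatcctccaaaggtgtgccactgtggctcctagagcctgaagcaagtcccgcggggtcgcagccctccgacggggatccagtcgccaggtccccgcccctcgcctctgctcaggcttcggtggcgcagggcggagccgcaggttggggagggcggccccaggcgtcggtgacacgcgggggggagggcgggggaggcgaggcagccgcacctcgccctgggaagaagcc

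The Ivl window (chr3:92573736-92573985) holds 1 AP-1 motif, whose first base is 116 bases before the start. The Sprr1a window (chr3:92485882-92486131) holds 2, at 146 and 116 bases. The window of Dsp (chr13:38151044-38151293, plus strand), that of Jup and both windows of Tgm1 hold 0. Of 32851 windows of the same length in the RefSeq table, 6.75% hold the AP-1 motif at least 1 time and 0.338% at least 2 times. The Grainyhead-like motif is in 0.24% of the windows and in none of those searched for Ivl, Sprr1a, Dsp, Jup and Tgm1. Dsc2, Dsg2, Evpl, Ppl and Pkp1 were not searched, so nothing is said of either motif for them. The windows of Ivl and Sprr1a have 51.6% and 49.6% G and C, near the median of 52.4%, against 72.4% for Dsp. These matches describe letters in a window and were not tested as binding sites.

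Few other genes of the epidermal differentiation complex were in the tables. Within 500 kb of Ivl the annotation lists 67 further genes, 48 of them protein coding, of which 2 were in the table of spheroids and 3 in those against vehicle. These were Gm9774, Gm4202 and Lce1g, named after their values were seen. In spheroids Gm9774 had a log2 fold change of -0.52 (FDR 0.606) and Gm4202, a processed pseudogene, one of 0.36 (FDR 0.184). Against vehicle, the late cornified envelope gene Lce1g fell with NEPs (-2.65, FDR 0.00484) and did not pass the test for apoDBs (0.36, FDR 0.359). Lce1g had no value in spheroids or with NEPs against apoDBs, and how low its level was with NEPs is unknown. Gm4202 rose under both kinds of debris (0.57, FDR 0.0296, for NEPs and 0.63, FDR 0.026, for apoDBs). Of the wider list of 39 cornified envelope and late differentiation genes, 5 were in the table of spheroids. All 5 fell, beside 26.1% of all genes. These 5 included the cystatin gene Csta1 (-3.67, FDR 0.00251), trichohyalin Tchh (-2.82, FDR 0.00886) and suprabasin Sbsn (-2.55, FDR 0.000476). Csta1 and Tchh were in no other table. Genes that are not in a table have no value here, so these 5 do not stand for the whole list. Sbsn and Anxa1, a calcium- and phospholipid-binding annexin of the envelope, went the other way in 2D cultures and rose both with NEPs (1.03 and 0.56) and with apoDBs (0.73 and 0.76) against vehicle. Klk7, a protease that cleaves corneodesmosomes, fell with NEPs against apoDBs (-3.10, interval -4.80 to -1.39, FDR 0.00145). It had no value with NEPs against vehicle and did not pass the test with apoDBs against vehicle (1.13, FDR 0.165). How low its level was with NEPs is unknown.

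Among the other transglutaminases, all 3 of 7 found in the table of spheroids fell, where 26.1% of all genes fell. Tgm5, which was in no other table, had a log2 fold change of -4.20 (FDR 0.00144). F13a1, the coagulation factor XIII A subunit, was at -2.57 (FDR 1.42e-05). F13a1 also fell with NEPs against vehicle (-1.08, FDR 4.57e-05), rose with apoDBs (0.68, FDR 0.00377) and fell with NEPs against apoDBs (-1.77, FDR 1.18e-05). Beside Evpl, Ppl and Dsp, 4 further plakins were looked up. In spheroids these 4 genes had a median of -0.04, with 1 fallen, Eppk1 (-1.55, FDR 0.000287), and 1 risen, Plec (0.63, FDR 0.0131). With NEPs against vehicle 3 of the 4 fell, beside 31.1% of all genes, among them the hemidesmosomal plakin Dst (-0.98, FDR 6.42e-06). With apoDBs against vehicle 3 of the 4 fell too, beside 22.6% of all genes, Dst again among them (-0.49, FDR 0.00272). With NEPs against apoDBs 2 of the 4 fell, Plec (-0.43, FDR 0.0028) and Dst (-0.35, FDR 0.000299), and 2 rose, Eppk1 (0.96, FDR 1.38e-05) and Macf1 (0.16, FDR 0.0114).

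Of the 12 other desmosome components, 6 were in the table of spheroids. There 4 fell and 1 rose, with a median log2 fold change of -1.55, where 26.1% of all genes fell and 21.7% rose. The largest change was that of Dsg3 (-5.94, interval -8.56 to -3.32, FDR 0.000144), a desmoglein of stratified epithelium. Dsg1c fell by 4.38 on the log2 scale (interval -6.41 to -2.36, FDR 0.000271) and was in no other table. Perp, a membrane protein needed for desmosome assembly, fell in spheroids (-2.49, interval -3.36 to -1.61, FDR 6.39e-06) within the study's limits, fell with NEPs against vehicle (-0.36, FDR 0.000555), rose with apoDBs (0.22, FDR 0.0138) and fell with NEPs against apoDBs (-0.60, FDR 2.13e-06). With NEPs against vehicle 5 of 6 of these components fell and 0 rose, beside 31.1% of all genes fallen. With NEPs against apoDBs 4 of 5 fell and 0 rose, beside 31.4% of all genes fallen. Cdsn, the corneodesmosin gene, fell with both NEPs (-3.18, FDR 0.000304) and apoDBs (-3.55, FDR 0.0016) against vehicle. It had no value in spheroids or with NEPs against apoDBs, and how low its level was with either kind of debris is unknown.

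**Figure D3:**
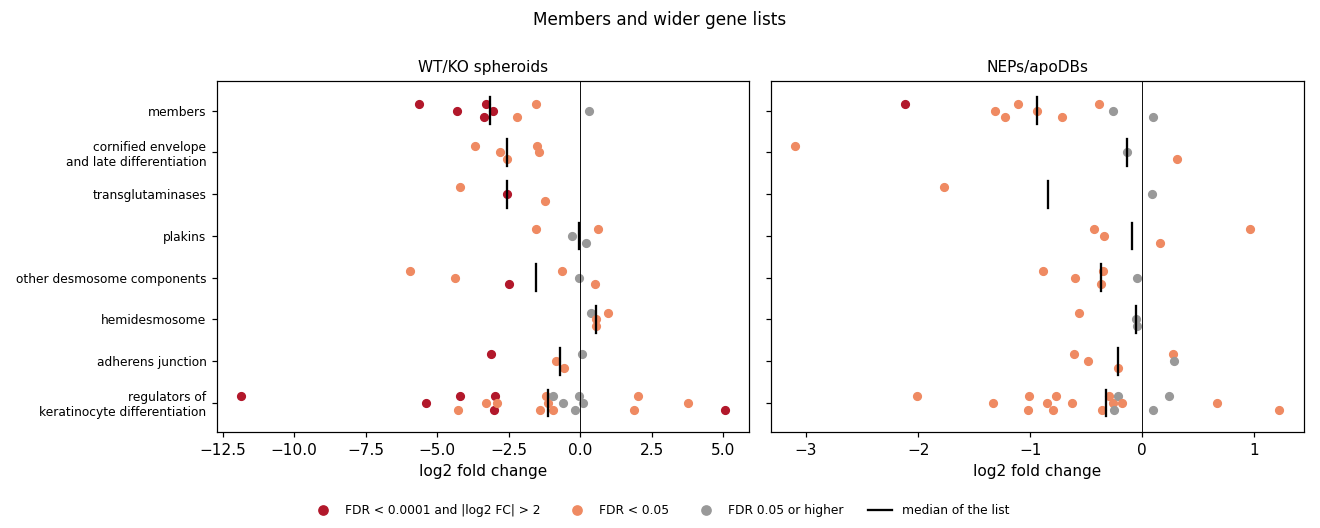
Log2 fold changes (x axis, 1 range per panel) of the members and of 7 wider lists (y axis) in WT/KO spheroids and NEPs/apoDBs. Each point is 1 gene in the table, coloured by its call and spread vertically for legibility, and the bar is the median of the list. In spheroids the medians run from -3.17 for the members to 0.56 for hemidesmosome genes, and the lowest single gene is Ehf at -11.8.

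Genes of hemidesmosomes and adherens junctions are given for comparison, and no difference between these lists and the members was tested. Hemidesmosomes anchor keratin to the basement membrane. All 4 hemidesmosome genes were in the table of spheroids, where 3 rose and 0 fell, beside 21.7% of all genes risen. Col17a1 was at 0.96 (FDR 0.0487) and Itga6 at 0.57 (FDR 0.00996). Itgb4, the integrin subunit that binds plectin, had a log2 fold change of 0.38 in spheroids (FDR 0.329) and fell with NEPs against vehicle (-1.05, FDR 1.29e-05). Itgb4 also fell with apoDBs against vehicle (-0.46, FDR 0.0215). Of the adherens junction genes, 3 of 4 in the table fell in spheroids, beside 26.1% of all genes. Cdh1, the gene of E-cadherin, fell by 3.12 on the log2 scale (interval -4.15 to -2.10, FDR 3.37e-06), a value inside the interval of Dsp. With NEPs against apoDBs Cdh1 rose (0.27, FDR 0.00276), and Ctnnb1, encoding the catenin closest to plakoglobin, fell (-0.61, FDR 5.46e-06), as Jup did.

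Epithelial markers were mixed in spheroids. Of the 5 markers 3 fell, with log2 fold changes of -2.84 for Epcam, -2.70 for Krt19 and -3.12 for Cdh1, while the simple keratins Krt8 and Krt18 rose (1.23 and 0.90). In 2D cultures 3 of the 5 fell and 0 rose with NEPs against vehicle (median -0.26), beside 31.1% of all genes fallen. With apoDBs against vehicle 3 rose and 0 fell (median 0.44), beside 22.9% of all genes risen. With NEPs against apoDBs 4 fell and 1 rose (median -0.80), beside 31.4% of all genes fallen. The part of these markers in the members' values was not tested in any of the 4 comparisons. The mesenchymal marker Col1a1, in the table of spheroids and no other, fell as well (-4.19, FDR 0.000186). The other fibroblast marker in spheroids had a log2 fold change of -0.0088 and did not pass the test. The leukocyte marker Cd68 rose in spheroids (1.71, FDR 0.00303), while the other leukocyte marker there had a log2 fold change of -3.01 and did not pass the test. Cd68 also rose with NEPs against vehicle (1.06, FDR 0.000164), where Csf1r, the other leukocyte marker in the tables, fell (-1.14).

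Regulators of keratinocyte differentiation moved both ways. Of 24 such genes 21 were in the table of spheroids, where 26.1% of all genes fell and 21.7% rose. Among these 21 regulators 12 fell, 4 rose and 5 did not pass, with a median of -1.14. Ehf, an ETS factor of epithelial cells, had the largest fall among them (-11.8, interval -15.8 to -7.90, FDR 4.04e-06). The level of Ehf in WT spheroids is unknown, and if few reads stood behind it, this size would rest on an offset. Grhl1, a Grainyhead-like factor that acts on desmosomal cadherin genes, fell as well (-5.40, FDR 6.06e-06), as did Trp63, the p63 gene of basal epithelium (-4.19, FDR 4.98e-05), Elf3 (-3.02, FDR 2.97e-05) and Ovol1 (-2.99, FDR 6.11e-05). These 5 were past the study's limits. Fosl1, an AP-1 subunit, was the sixth and rose (5.07, interval 3.23 to 6.91, FDR 9.42e-06), opposite to Ivl. Klf4, a factor of barrier formation, rose in spheroids (2.01, FDR 0.000142) just outside the limits.

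In 2D cultures some of these regulators had the signs of Ivl and others did not, and no likeness was tested. Over all genes 22.9% rose and 22.6% fell with apoDBs against vehicle. Of 18 regulators 13 rose there and 1 fell. Those that rose included Trp63 (1.80, interval 0.79 to 2.80, FDR 0.00289), Ehf (1.24, FDR 6.67e-05) and Grhl1 (1.03, FDR 0.000737). Over all genes 31.4% fell and 23.4% rose with NEPs against apoDBs, and of 18 regulators 12 fell and 2 rose. Those that fell included Trp63 (-2.01, FDR 0.00179), Ovol2 (-1.33, FDR 2.5e-05), Ehf (-1.01, FDR 2.26e-06) and Grhl1 (-0.77, FDR 0.000593). The 2 that rose were Klf4 (1.22, FDR 8.26e-07) and Fosl1 (0.67, FDR 2.81e-05), which also rose with NEPs against vehicle (1.24 and 1.03). With NEPs against vehicle 4 of 17 regulators fell and 7 rose, beside 31.1% and 24.3% of all genes.

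The genes with the pattern most like that of Ivl were found by Euclidean distance over the 4 log2 fold changes, among 12685 other genes in all tables. The nearest were Gas7 (distance 0.953), Tmprss4 (1.29), Slc25a35 (1.37), Tspan1 (1.55) and Smpd3 (1.57). Gas7 had log2 fold changes of -5.46 in spheroids, 0.81 with NEPs and 2.33 with apoDBs against vehicle, and -1.49 with NEPs against apoDBs. Of the other members, Dsc2 was nearest at rank 27 (2.53), followed by Pkp1 at rank 46 (2.91) and Dsp at rank 146 (3.82). Ppl was farthest, at rank 6626. Spheroid values, the largest of the 4, weigh most in this distance, and 3 of the comparisons share samples.

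On chromosome 18 of GRCm38 the desmosomal cadherin genes form a cluster, with Dsc2 at 20030633 to 20059554 on the minus strand and Dsg2 at 20558074 to 20604521 on the plus strand in GENCODE M21. All 4 cadherins of this cluster that were in the table of spheroids fell, beside 26.1% of all genes. Dsc2, Dsg1c, Dsg3 and Dsg2 were at -4.31, -4.38, -5.94 and -3.30. On the far side of Dsg2, within 500 kb, 5 genes outside the cluster were in the table of spheroids and went both ways. B4galt6, a glycosphingolipid synthesis gene 188 kb downstream of the Dsg2 start, was higher in WT spheroids (9.69, FDR 8.29e-05) and with NEPs against apoDBs (8.73, FDR 2.08e-07). It was also higher with NEPs against vehicle (8.72, FDR 1.33e-07) and had no value with apoDBs against vehicle. Its level in the lower groups is unknown, and if few reads stood behind it, these sizes would rest on an offset not given here. Of the other 4, named after their values were seen, Rnf125 rose in spheroids (1.41, FDR 0.0218), Rnf138 fell (-0.96, FDR 0.01), and Trappc8 (-0.17, FDR 0.489) and Gm10269 (-0.42, FDR 0.468) did not pass the test. In the comparison of NEPs with apoDBs, Dsc2 fell by 1.31, Dsg3 fell by 0.89 (FDR 0.0273) and Dsg2 had a log2 fold change of 0.09.

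The other members lie apart from each other, Pkp1 on chromosome 1 (135871395 to 135919207), Jup and Evpl on chromosome 11 (100368958 to 100397763 and 116220559 to 116238077), Dsp on chromosome 13 (38151294 to 38198577), Tgm1 on chromosome 14 (55700009 to 55713926) and Ppl on chromosome 16 (5086291 to 5132421). Genes within 500 kb of Dsp had a median log2 fold change of -0.52 over 9 genes in spheroids, and those near Pkp1 one of 0.31 over 15 genes. Near Jup the median was -0.08 over 23 genes and near Evpl 0.12 over 31. Near Ppl, which did not pass the test, 11 of 21 genes fell in spheroids, with a median of -0.49, beside 26.1% of all genes fallen. Past the study's limits in spheroids were Rnf157 near Evpl (2.47, FDR 2.66e-05) and Cnp (-2.17, FDR 1.6e-05) and Krt19 near Jup. In 2D cultures the keratin gene Krt16 (2.02, FDR 6.37e-07) and the RNA sensor gene Dhx58 (2.46, FDR 2.56e-09), both near Jup, rose with NEPs against vehicle, and Gzme, a granzyme gene near Tgm1, fell with NEPs against apoDBs (-2.92, FDR 1.66e-05).

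**Figure D4:**
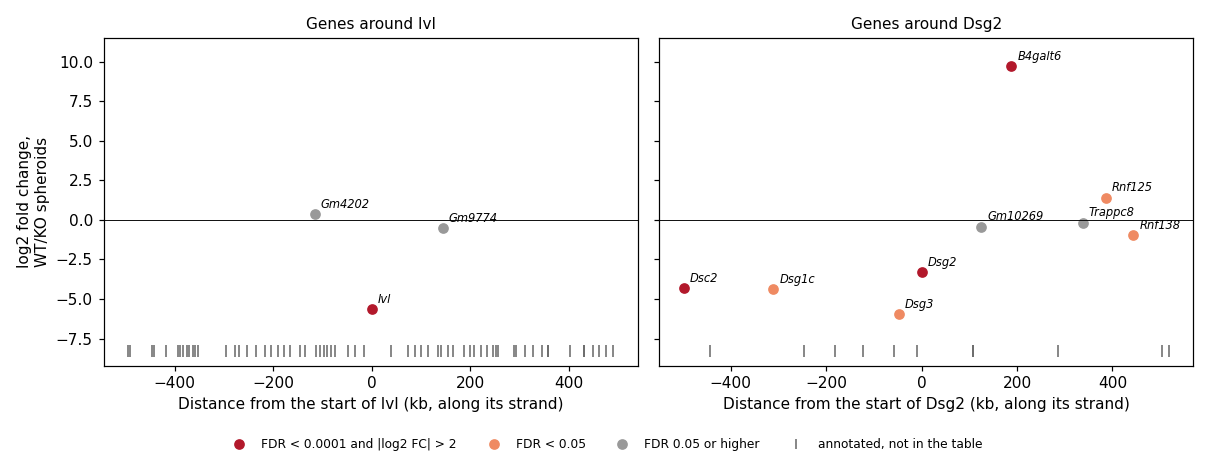
Log2 fold change in WT/KO spheroids (y axis) of genes around Ivl and around Dsg2, by the distance of their start from the start of the named gene along its strand in kb (x axis). Points are genes in the table, coloured by their call, and ticks at the bottom are annotated genes that were not in it. Ivl stands at -5.63 among ticks, while Dsc2, Dsg1c and Dsg3 lie with Dsg2 below -3 and B4galt6 lies at 9.69.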

How the data were processed

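RNA-seq of 15 samples of mouse 4T1 cells in 5 groups of 3 was used through the 4 limma tables the authors deposited, which hold results of their own comparisons and no values per sample. The deposited fold change is a score with a sign, linear in scale and with decreases given as the negative reciprocal, and was converted to log2. The deposited p-value is limma's, without adjustment. Quantification and testing were done with the CCBR Pipeliner per the study's methods. The submitters' processing notes name mm9, while 99.9% of the identifiers in each table are in GENCODE M21 (GRCm38), between 93.6% and 93.7% with the same version. Positions are given from that release. Aligner, counting tool, filter and normalization are not given in the sources used here, the depth is unknown, and the tables differ in the genes they hold.

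FDRs come from a Benjamini-Hochberg adjustment of these p-values within each whole table. The widest 95% interval is the wider of those implied by a log2 fold change and its p-value under a t distribution with 4 degrees of freedom and under a normal distribution, and was left out below 0.1 in size. Both steps were tested on simulated data. Wider gene lists were described by counts and medians. Named genes are all members, genes of the wider lists past the study's limits or with 1 of the 2 largest changes at an FDR below 0.05 in a list and table, the 5 genes nearest to Ivl, and genes within 500 kb of a member that were past the limits, with Padi4 as the targeted gene. Markers of cell types are named beside these. The members and lists were chosen with earlier results of these data known. Alternatives were other FDRs, a fold limit, Benjamini-Yekutieli adjustment, adjustment over the genes in all 4 tables, unadjusted p-values, centring and joining by symbol. Software was Python 3.11.15 with numpy 2.4.6, pandas 2.3.3, scipy 1.17.1 and matplotlib 3.10.9.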

Additional observations from a re-analysis of the deposited data

How the results depend on the processing

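Of 44 alternative counts of members called, 37 stayed within 1.5 times the count reported. With an absolute fold change above 2 added to an FDR below 0.05, the members called were 0 with NEPs against vehicle, 1 with apoDBs against vehicle and 4 with NEPs against apoDBs. At an FDR below 0.0001, 0 members were called with NEPs or with apoDBs against vehicle. Of the study's limits, a fold change above 2 in place of the log2 limit gave 4 members with NEPs against apoDBs, and an FDR below 0.05 gave 1 with apoDBs against vehicle. These limits admit more or fewer genes by construction. Centring on the median of all genes changed the sign of 0 of 35 log2 fold changes, and adjusting over the genes in all 4 tables, Benjamini-Yekutieli adjustment, unadjusted p-values and joining by symbol kept each count within 1.5 times. No paired analysis was possible because the tables hold no values per sample, and for the same reason leaving out replicates was not run.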
